A study of Citrullus lanatus with 30 samples.

Results

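In watermelon (Citrullus lanatus) flesh, 4 transcripts were near 0 in most clnor libraries and clear in older wild type (WT) flesh. They encode a cryptdin protein-like protein (Cla97C09G162230), an inhibitor I family protein (Cla97C06G122340), a root meristem growth factor 9-like protein (Cla97C02G027310) and an organ-specific protein P4-like protein (Cla97C11G211230). The 4 genes were taken by ID from 22596 genes of the table, and they were picked on that same difference between clnor and WT. The difference itself is therefore given as a description, with no test.

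Ages are counted in days after pollination (DAP), and flesh of clnor and of WT fruits was sampled first at 10 DAP, then at 18, 26 and 34 DAP, and last at 42 DAP, with 3 libraries in each of 10 groups. The labels call clnor a mutant and name no allele, no way in which it was made, no variety, and not whether libraries of a group came from separate fruits, so the tests below measure the spread between these libraries, which may be technical. No gene description names the mutated gene, so its level could not be used to check the labels. Values are TPM, a transcript level corrected for gene length and library size, and TPM keeps no read number, so the depth behind each value is unknown and a 0 is given as listed at 0. In whole flesh, fewer cells of a type and less RNA per cell cannot be told apart.

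At 18 DAP the library labelled replicate 3 of each genotype lay nearer the other genotype than its own over all genes tested. The library labelled clnor 18 DAP replicate 3 correlated at r = 0.942 with the mean of the other two clnor libraries and at r = 0.977 with the WT mean of that age, and the library labelled WT 18 DAP replicate 3 at r = 0.945 with the other two WT libraries and at r = 0.969 with the clnor mean. Both go against their labels in this respect. Some of the results that rest on 18 DAP are also given without them, and the others include both libraries as labelled.

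The tomato gene NOR encodes a NAC transcription factor whose mutants ripen little or not at all, and the name clnor recalls that gene, although the labels do not say which watermelon gene is changed. Potato inhibitor I proteins, whose name the description of the inhibitor I transcript recalls, are small inhibitors of serine proteinases, known from wounded tomato leaves and from storage organs, where they act against proteinases of insects and microbes. Root meristem growth factors are short secreted peptides that carry a sulfate on a tyrosine and keep the root meristem active in Arabidopsis. Organ-specific proteins P4 and S2 were named in pea for transcripts found in some organs and not in others. Cryptdins are defensin peptides of the mouse gut, and the role of the watermelon protein described by that name is not given in the table.

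The cryptdin protein-like transcript was listed at 0 in each of the 15 clnor libraries. In WT it was listed at 0 in the 3 libraries at 10 DAP. It was at 3.71, 43.92 and 1.5 TPM in WT at 18 DAP and at 32.67, 26.25 and 5.86 TPM at 26 DAP. The 18 and 26 DAP values of WT overlapped, and WT replicate 2 at 18 DAP stood above the 3 at 26 DAP. At 34 DAP the WT libraries held 137.48, 154.8 and 70.95 TPM, and at 42 DAP 238.76, 341.63 and 900.27 TPM. Each of these last steps separated all 3 older libraries from all 3 younger ones, with means 5.61-fold higher at 34 than at 26 DAP and 4.08-fold higher at 42 than at 34 DAP. In the 3 WT libraries at 42 DAP it ranked between 111 and 657 among all genes of a library, so that a transcript listed at 0 in every clnor library was among the abundant ones of late WT flesh.

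The inhibitor I transcript was also listed at 0 in all 15 clnor libraries. In WT it was listed at 0 in 10 of 15 libraries, among them all 6 at 10 and 18 DAP. Single WT libraries held 2.69 TPM at 26 DAP and 2.49 TPM at 34 DAP, with the other two libraries of each age at 0. At 42 DAP all 3 WT libraries held it, at 99.6, 437.88 and 160.23 TPM, and it ranked between 300 and 1840. It was the latest of the 4 transcripts in WT, clear at 42 DAP alone, and its WT mean at 42 DAP was 280-fold that at 34 DAP. Because the gene was taken for its late level, that step is not tested.

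The root meristem growth factor 9-like transcript was listed at 0 in 13 of 15 clnor libraries, with 1.93 TPM in 1 clnor library at 10 DAP and 1.73 TPM in another at 18 DAP. In WT at 10 DAP it was likewise low, at 0, 0 and 1.74 TPM. WT libraries held 43.4, 49.44 and 17.67 TPM at 18 DAP and 158.4, 270.45 and 58.24 TPM at 26 DAP. All WT libraries at 26 DAP thus lay above all those at 18 DAP, with a mean 4.41-fold higher. At 34 DAP the WT values were 13.58, 36.82 and 32.79 TPM, all below those at 26 DAP, and at 42 DAP they were 85.25, 37.68 and 28.69 TPM, which overlapped those at 34 DAP. Its WT peak therefore came at 26 DAP, earlier than that of the other three, and it ranked between 2156 and 5864 at 42 DAP.

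The organ-specific protein P4-like transcript was the one that clnor flesh still held, listed at 0 in 3 of 15 clnor libraries. The clnor values were 6.19, 1.45 and 0 TPM at 10 DAP, 0, 0.65 and 19.27 TPM at 18 DAP, 0.73, 1.39 and 0.73 TPM at 26 DAP, 0, 3.47 and 1.49 TPM at 34 DAP, and 1.53, 3.65 and 3.3 TPM at 42 DAP. The WT values were 1.88, 14.39 and 17.36 TPM at 10 DAP, 28.28, 343.51 and 48.42 TPM at 18 DAP, 66.42, 107.13 and 105 TPM at 26 DAP, 193.44, 368.82 and 528.65 TPM at 34 DAP, and 406.22, 219.18 and 233.52 TPM at 42 DAP. The genotypes overlapped at 10 DAP, and from 18 DAP on every WT library lay above every clnor library of any age, although the library labelled clnor 18 DAP replicate 3 came close to the lowest WT library of that age. The log2 ratio of clnor to WT means was -2.14 at 10 DAP, -4.40 at 18 DAP, -6.61 at 26 DAP, -7.78 at 34 DAP and -6.66 at 42 DAP, so with all libraries the gap was widest at 34 DAP, where the WT mean was 220-fold the clnor mean. Without both replicate 3 libraries at 18 DAP the ratio of that age was -9.16. It came from means of 0.325 TPM in clnor and 186 TPM in WT over 2 libraries each. That ratio, then the widest, rests on clnor values of 0 and 0.65 TPM and WT values of 28.28 and 343.51 TPM. So close to 0 it depends on the scale, and it does not show that the gap was widest at 18 DAP.

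**Figure D1:**
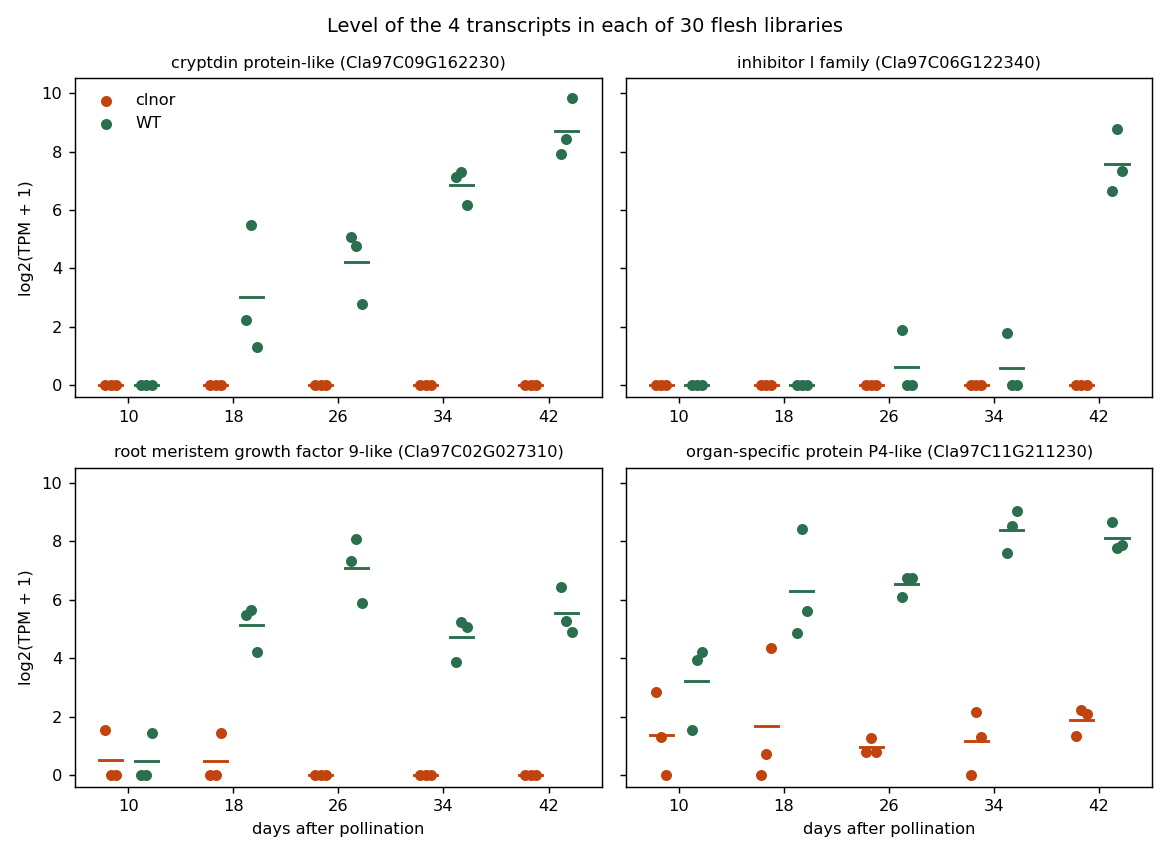
Level of each transcript, as log2(TPM + 1), against days after pollination, with 1 point per library (clnor orange, left; WT green, right) and a bar at the mean of 3 libraries. The clnor points of the cryptdin protein-like and inhibitor I transcripts all lie at 0, and the inhibitor I transcript is clear in WT at 42 DAP alone.

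The transcripts became visible in WT at different ages. At 10 DAP the genotypes did not separate for any of the 4. At 18, 26 and 34 DAP all WT libraries lay above all 15 clnor libraries for the cryptdin protein-like, root meristem growth factor 9-like and organ-specific P4-like transcripts, and at 42 DAP for all 4. At 18 DAP these 3 transcripts also separated the genotypes without both replicate 3 libraries. If both labels were exchanged, the genotypes would overlap at 18 DAP for these 3 transcripts. The library labelled WT replicate 3 held more of each than the library labelled clnor replicate 3. For scale, 51.7% of the 16503 genes tested were called different between clnor and WT over 26, 34 and 42 DAP, and 3.51% over 10 and 18 DAP, by limma on log2(TPM + 1) with a Benjamini-Hochberg adjusted p under 0.05. Over 10 and 18 DAP 579 genes were called, and 2737 without both replicate 3 libraries at 18 DAP. Differences between the genotypes in older flesh were thus common in the table, and the 4 transcripts were chosen for one.

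Averaged over 26, 34 and 42 DAP, the clnor minus WT difference on the log2(TPM + 1) scale was -6.59 for the cryptdin protein-like transcript, -6.34 for the organ-specific P4-like, -5.79 for the root meristem growth factor 9-like and -2.94 for the inhibitor I transcript. The scale understates changes of low genes, and the sizes of the 3 transcripts listed at 0 in older clnor flesh depend on the added constant. With 0.1 TPM added in place of 1, the differences were -9.88 for the cryptdin protein-like, -7.27 for the organ-specific P4-like, -9.07 for the root meristem growth factor 9-like and -4.69 for the inhibitor I transcript. The order of the organ-specific and root meristem growth factor transcripts turned round between these scales.

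Between 34 and 42 DAP in WT, ages at which the transcripts were chosen to be clear, the values are a description as well. The mean of log2(TPM + 1) at 42 DAP lay above that at 34 DAP by 6.99 for the inhibitor I transcript and by 1.86 for the cryptdin protein-like transcript, with the libraries of these ages apart. The root meristem growth factor 9-like transcript differed by 0.80 and the organ-specific P4-like transcript by -0.29, with libraries of these ages overlapping.

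Over the 15 WT libraries the transcripts followed each other to different degrees, described here by Pearson's r of log2(TPM + 1), in libraries that share ages. The cryptdin protein-like and organ-specific P4-like transcripts were the closest pair, at r = 0.85, and the inhibitor I and root meristem growth factor 9-like transcripts the least close, at r = 0.23. Without the library labelled WT 18 DAP replicate 3 these were 0.86 and 0.23. After the mean of each age was taken out, r over the 15 WT libraries was 0.43 for the root meristem growth factor 9-like and organ-specific P4-like pair and 0.40 for the cryptdin protein-like and organ-specific P4-like pair. The cryptdin protein-like transcript had r = 0.32 with the root meristem growth factor 9-like and 0.22 with the inhibitor I transcript. The within-age r was -0.30 between the inhibitor I and root meristem growth factor 9-like transcripts and -0.33 between the inhibitor I and organ-specific P4-like transcripts. The inhibitor I transcript was listed at 0 in 10 of 15 WT libraries. Each within-age r with it therefore rests on 42 DAP and on single libraries at 26 and 34 DAP. At 18 DAP replicate 2 of WT was the highest of its group for all 3 transcripts present, and the library labelled replicate 3 was the lowest for the cryptdin protein-like and root meristem growth factor 9-like ones.

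A 0 throughout one genotype was common in this table, but seldom with a high level in the other. In all, 3255 genes were listed at 0 in each clnor library, and 2782 of them in WT as well. Of the 473 that WT held in at least 1 library, 3 had a mean of at least 5 TPM over the 6 WT libraries at 34 and 42 DAP. These were the cryptdin protein-like gene with a mean of 307 TPM, the inhibitor I gene with 117 TPM and a glycine-rich protein gene (Cla97C04G068820) with 121 TPM, which was at 116 TPM on average in WT at 34 DAP and thus appeared earlier than the inhibitor I transcript. The converse, a gene at 0 in all 15 WT libraries with a mean of at least 5 TPM over the 6 clnor libraries at 34 and 42 DAP, was met by 0 genes. An exact 0 also occurred for well expressed genes, since 11 of 3494 genes with a median of at least 50 TPM were listed at 0 in at least 1 library.

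With up to 1 TPM allowed in clnor, in at least 12 of 15 libraries, 42 genes reached that mean in late WT flesh, and 16 did so with the genotypes exchanged. The cryptdin protein-like, inhibitor I and root meristem growth factor 9-like genes (39.1 TPM) were among the 42. The organ-specific P4-like gene was not, as it was at or under 1 TPM in 6 of 15 clnor libraries. Among the non-members with the highest late WT means in that set were an acyl-[acyl-carrier-protein] desaturase gene (Cla97C08G160880, 147 TPM), which places double bonds in fatty acids of the plastid, the peptide gene IDA-LIKE 1 (Cla97C05G105040, 87.8 TPM), a 3-oxoacyl-[acyl-carrier-protein] synthase gene of fatty acid synthesis (Cla97C06G122770, 63.1 TPM), a cytoplasmic tRNA 2-thiolation protein gene (Cla97C01G020890, 51.2 TPM) and a MYB-related transcription factor gene (Cla97C10G196920, 45.6 TPM).

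**Figure D2:**
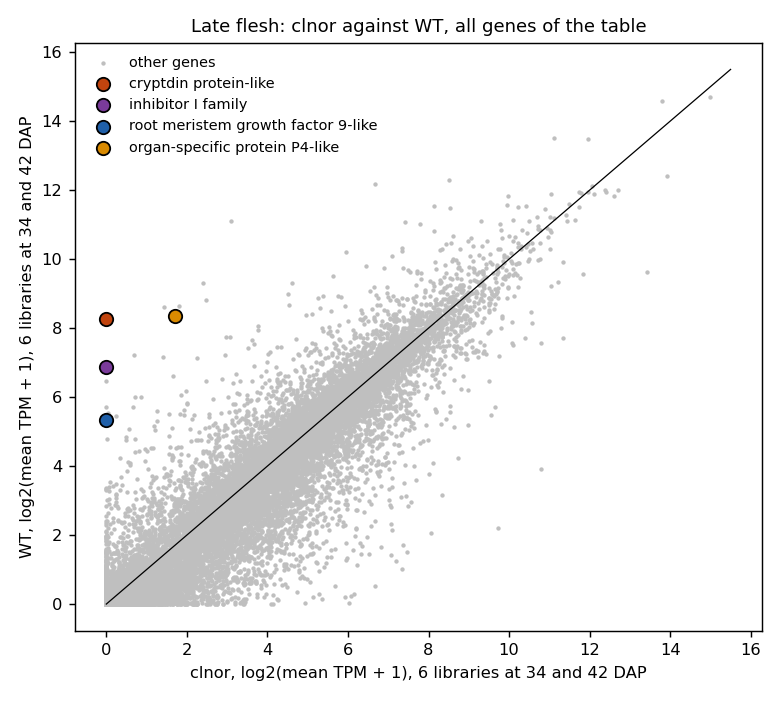
Mean level of every gene over the 6 clnor libraries at 34 and 42 DAP (x) against the 6 WT libraries of those ages (y), both as log2(mean TPM + 1), with equal levels on the line and the 4 transcripts coloured. The cryptdin protein-like, inhibitor I and root meristem growth factor 9-like transcripts lie on the left edge, where clnor is at 0, with WT means of 307, 117 and 39.1 TPM.

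The described genes most like each transcript over the 30 libraries, by Pearson's r of log2(TPM + 1), differed from member to member. Genes described as unknown protein were left out of this ranking. The genes were picked by likeness to transcripts chosen as near 0 in clnor and clear in older WT flesh. Their gaps between clnor and WT therefore follow from that choice. Nearest to the cryptdin protein-like transcript were IDA-LIKE 1, whose Arabidopsis relative IDA is a peptide signal of floral organ shedding, at r = 0.98, a Sec61 subunit alpha-like gene (Cla97C11G223450) of the channel that passes proteins into the endoplasmic reticulum, at r = 0.97, and the plastid desaturase, also at r = 0.97. IDA-LIKE 1 was listed at 0 in 14 of 15 clnor libraries and averaged 126 ± 74.6 TPM in WT at 42 DAP (SD, n = 3). The desaturase averaged 0.67 ± 0.37 TPM in clnor and 203 ± 60.6 TPM in WT at 42 DAP (SD, n = 3 each). An amino acid transporter gene (Cla97C03G054670), an NHL domain gene (Cla97C11G223460) and a regulatory subunit of the SNF1-related kinase (Cla97C05G106620), an energy sensor, followed at r = 0.96 each.

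The 6 described genes most like the inhibitor I transcript were at lower levels. Its closest genes were an Arf GTPase activating protein gene (Cla97C05G098430) and a glyoxalase-like gene (Cla97C05G096520), both at r = 0.90, a condensin-2 subunit gene (Cla97C01G016700) at r = 0.90, a tesmin/TSO1-like gene (Cla97C07G139640) and a pectin lyase-like gene (Cla97C10G193300), both at r = 0.89, and gibberellin 2-beta-dioxygenase 2 (Cla97C10G194450), an enzyme that inactivates gibberellin, at r = 0.88. In WT at 42 DAP the gibberellin gene averaged 11.2 ± 6.25 TPM (SD, n = 3), the highest of these 6, against 233 ± 180 TPM (SD, n = 3) for the inhibitor I transcript. All 6 had their highest group mean in WT at 42 DAP, as the inhibitor I transcript did, which follows from their choice by likeness to it.

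The root meristem growth factor 9-like transcript was closest to hydrogen peroxide induced protein 1 (Cla97C07G144280, r = 0.94), a receptor kinase 2 gene (Cla97C10G200450, r = 0.93) and a germin-like cell wall protein gene (Cla97C01G025270, r = 0.93). An AAA-ATPase 1 gene (Cla97C01G013290, r = 0.91), an ATP-dependent DNA helicase Q-like 5 gene (Cla97C11G219870, r = 0.90) and the mismatch repair gene MLH3 (Cla97C10G184720, r = 0.90) followed. Over the WT libraries alone r was lower for these 6 genes, from 0.79 for the helicase to 0.90 for hydrogen peroxide induced protein 1. For the genes closest to the other transcripts it ran from 0.88 to 0.97 in WT. Hydrogen peroxide induced protein 1 shared the WT maximum at 26 DAP, with 235 ± 34.8 TPM in clnor and 3036 ± 359 TPM in WT at that age (SD, n = 3 each), but unlike the growth factor it stayed well expressed in clnor. The receptor kinase was also among the genes closest to the organ-specific P4-like transcript, at r = 0.96. Closest to the organ-specific P4-like transcript was a NAC domain gene (Cla97C06G125640, r = 0.97), of the transcription factor family that NOR belongs to in tomato. It averaged 13.0 ± 1.15 TPM in clnor and 163 ± 21.5 TPM in WT at 34 DAP (SD, n = 3 each). This gap, like that of hydrogen peroxide induced protein 1, follows from the choice by likeness. An alpha-mannosidase gene (Cla97C01G019850), of an enzyme that trims mannose from glycans, had r = 0.97, a gene of unknown function (Cla97C08G155690) r = 0.96, a senescence regulator gene (Cla97C10G203490) r = 0.95 and a phosphate transporter gene (Cla97C10G205070) r = 0.94. Over 28 libraries, without both replicate 3 libraries at 18 DAP, the r of IDA-LIKE 1 was 0.98, that of hydrogen peroxide induced protein 1 was 0.95 and that of the NAC domain gene was 0.97. None of the 4 transcripts was among the 6 genes most like another of them.

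**Figure D3:**
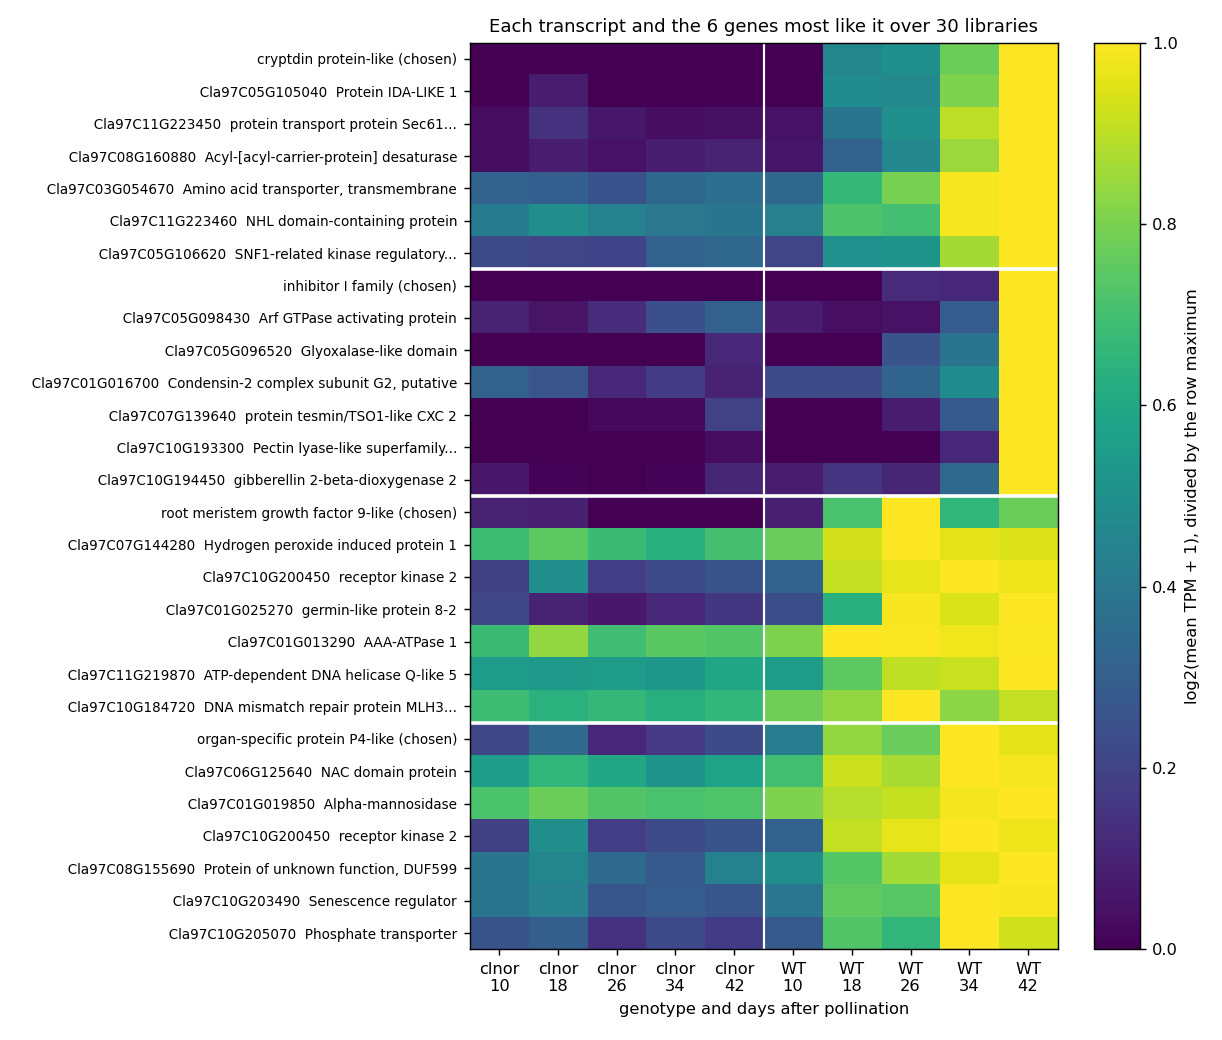
Heat map of the mean level in each of the 10 groups (columns, clnor left, WT right, ages rising within each), as log2(mean TPM + 1) divided by the highest value of its row, for each transcript and the 6 described genes most like it over 30 libraries. The cryptdin protein-like set brightens in WT over age, the inhibitor I set at WT 42 DAP, and the root meristem growth factor 9-like transcript at WT 26 DAP.

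The relatives of the organ-specific P4-like gene by description had the opposite pattern. The table held 3 other organ-specific protein genes, with the consecutive IDs Cla97C02G032060, Cla97C02G032070 and Cla97C02G032080, and all 3 were higher in clnor over 26, 34 and 42 DAP, against 33.5% of all genes tested. At 42 DAP Cla97C02G032070 was at 189, 143.49 and 509.24 TPM in clnor, against 0.3, 2.56 and 0.33 TPM in WT. Cla97C02G032080 was at 99.78, 89.77 and 266.93 TPM in clnor at that age, against 0.25, 2.05 and 0 TPM in WT. The lowest clnor library thus lay far above the highest WT library for both genes, while the P4-like gene, at most 3.65 TPM in clnor, was at 219.18 TPM or more in WT at that age. Cla97C02G032060 was low, at 1.45, 0.63 and 3.12 TPM in clnor, and listed at 0 in all 3 WT libraries.

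For these 3 genes the limma difference over 26, 34 and 42 DAP was 5.23 (SE 0.47, adjusted p = 5.33e-09) for Cla97C02G032070, 5.07 (SE 0.46, adjusted p = 5.76e-09) for Cla97C02G032080 and 1.81 (SE 0.24, adjusted p = 1.17e-06) for Cla97C02G032060. All 3 were called higher under each alternative setting and with each library left out. In WT they fell with age, by 10.31, 10.20 and 5.09 log2 units between 10 DAP and the mean of 34 and 42 DAP, in a comparison that called 29.4% of all genes lower. In clnor they fell by 2.43, 3.15 and 2.70, where 16.8% of genes were lower. At 10 and 18 DAP together none of the 3 passed (adjusted p = 0.892, 0.647 and 0.0688), and the genotype difference was larger in older than in younger flesh for Cla97C02G032070 and Cla97C02G032080 (interaction 5.02 and 4.51, adjusted p = 5.61e-05 and 0.00013) and did not pass for Cla97C02G032060 (0.86, adjusted p = 0.106), in a test that called 21.3% of genes and 12.9% in that direction. Without both replicate 3 libraries at 18 DAP the interactions were 4.40 and 3.90 (adjusted p = 0.000294 and 0.000761), and Cla97C02G032060 passed in younger flesh as well (1.22, adjusted p = 0.00937). In WT at 34 and 42 DAP the P4-like transcript was thus high and these 3 low, while at 26 DAP Cla97C02G032070 was still at 49.36, 36.25 and 283.52 TPM in WT, a range that held the P4-like values of that age. In clnor at 26, 34 and 42 DAP Cla97C02G032070 and Cla97C02G032080 were high and the P4-like transcript low. How reads of similar copies were assigned is not given in the sources used here, so the split between Cla97C02G032070 and Cla97C02G032080 is uncertain.

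**Figure D4:**
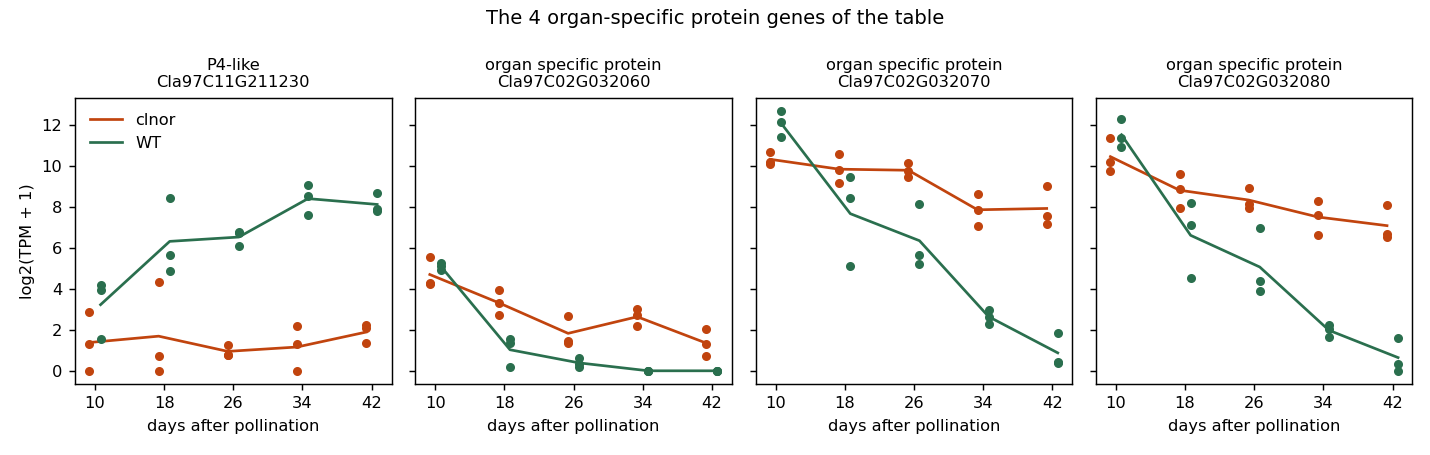
Level of the 4 organ-specific protein genes, as log2(TPM + 1), against days after pollination, with 1 point per library and lines through the means of 3 libraries (clnor orange, WT green). The P4-like gene is high in older WT flesh, and the 3 others are higher in older clnor flesh, with Cla97C02G032070 at 143.49 to 509.24 TPM in clnor and 0.3 to 2.56 TPM in WT at 42 DAP.

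The inhibitor I family had 5 other genes, of which 1 was high enough to be tested. That gene, proteinase inhibitor I-B (Cla97C09G175800), was at 84.44, 6.41 and 24.95 TPM in clnor at 42 DAP, against 3.59, 7.02 and 7.66 TPM in WT. The ranges overlapped, and the difference over 26, 34 and 42 DAP was 1.70 (SE 0.93, limma adjusted p = 0.133). It passed only without clnor replicate 2 at 26 DAP, which was listed at 0 (2.55, adjusted p = 0.00745). In WT this gene was at 1013, 311.02 and 242.92 TPM at 10 DAP and listed at 0 in all 3 libraries at 34 DAP. Between 10 DAP and the mean of 34 and 42 DAP it fell by 7.35 on the log2(TPM + 1) scale in WT (limma adjusted p = 0.000125), while the inhibitor I transcript was clear in WT at 42 DAP alone. The gene next to the inhibitor I transcript in ID order, described as inhibitor protein (Cla97C06G122350), was listed at 0 in all 15 clnor libraries and in WT at 10 to 34 DAP, and was at 0, 3.14 and 1.09 TPM in WT at 42 DAP. It was seen in the same group as its neighbour, at a far lower level.

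Protease inhibitors of other families were measured beside it. Of 22 tested genes, 12 were called higher and 2 lower in older clnor flesh, with a median difference of 0.57 on the log2 scale against 0.12 over all genes, of which 33.5% were called higher and 18.3% lower. The count of higher genes was 7 without clnor replicate 3 at 42 DAP and 8 under quantile normalization. Under that normalization 3874 of all genes were called higher, against 5521 as fitted, so the 33.5% is not its background. A Bowman-Birk type trypsin inhibitor (Cla97C04G078040) was higher by 1.68 (SE 0.21, limma adjusted p = 5.98e-07), and Kunitz trypsin inhibitor 4 (Cla97C02G041780) by 2.14 (SE 0.57, adjusted p = 0.00307). The most abundant gene of the list, a cysteine proteinase inhibitor (Cla97C01G010280), was higher by 0.54 (SE 0.13, adjusted p = 0.00096). Another cysteine proteinase inhibitor (Cla97C11G218960) was lower in clnor (difference -0.80, SE 0.10, adjusted p = 3.34e-07).

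Small antimicrobial proteins, the group the name cryptdin belongs to, gave 7 tested genes beside the member, of which limma called 3 higher and 0 lower in older clnor flesh (also 0 lower at an unadjusted p under 0.05). The share called higher was 42.9%, beside 33.5% of all genes tested. The most abundant of the 7, defensin-like protein 1 (Cla97C01G007350), did not pass (0.32, SE 0.20, adjusted p = 0.192). Defensin-like protein 2 (Cla97C02G026360) was at 361.06, 653.57 and 539.3 TPM in clnor at 42 DAP, against 24.32, 32.08 and 0 TPM in WT. Defensin-like protein 6 (Cla97C01G007340) was at 8465, 7299 and 7333 TPM in clnor at that age, against 1608, 865 and 1210 TPM in WT. The genotypes did not overlap for either gene, and the differences over older flesh were 4.04 (SE 0.55, adjusted p = 2.08e-06) and 3.58 (SE 0.56, adjusted p = 1.27e-05). Thionin-like protein 2 (Cla97C09G164380) was higher by 3.81 (SE 0.95, adjusted p = 0.00176), with clnor libraries spread from 0.05 to 1956 TPM at 34 DAP.

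The root meristem growth factor 9-like gene had few measurable relatives. The list of root meristem growth factors, phytosulfokines and protein-tyrosine sulfotransferases, the enzymes that sulfate such peptides, held 9 other genes, of which 4 were tested. A protein-tyrosine sulfotransferase-like gene (Cla97C05G091250) was lower in older clnor flesh by a small margin (difference -0.27, SE 0.09, limma adjusted p = 0.0168), and the other sulfotransferase gene (Cla97C01G012630) did not pass (-0.13, SE 0.09, adjusted p = 0.239). The phytosulfokine 3 precursor gene (Cla97C10G202430), of a growth peptide, was higher (1.29, SE 0.24, adjusted p = 0.000101). Another phytosulfokine gene (Cla97C01G016930) did not pass (0.96, SE 0.50, adjusted p = 0.11) except without clnor replicate 1 at 34 DAP (1.25, adjusted p = 0.0333). The 3 other genes described as root meristem growth factors (Cla97C01G014830, Cla97C10G187320 and Cla97C02G027290) were listed at 0 in all 30 libraries, so the 9-like gene was the one growth factor of that description measured in flesh. The search for AINTEGUMENTA and PLETHORA transcription factors, which act with these peptides in Arabidopsis roots, matched 0 genes.

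Of 25 tested genes for other secreted signalling peptides, 7 were higher and 2 lower in older clnor flesh, beside 33.5% higher and 18.3% lower of all genes tested. The most abundant, a rapid alkalinization factor gene (Cla97C06G114640), did not pass (0.36, SE 0.30, limma adjusted p = 0.33). Among the lower was a CLE12-like gene (Cla97C01G006000), of a family of short signals to receptor kinases. At 18 DAP it was at 0, 3.77 and 72.09 TPM in clnor, the last in the library labelled replicate 3, against 156.37, 551.33 and 36.58 TPM in WT. It was listed at 0 in all 6 clnor libraries at 34 and 42 DAP, against 130.65, 48.88 and 68.67 TPM at 34 DAP and 29.25, 7.77 and 23.28 TPM at 42 DAP in WT. Its difference over 26, 34 and 42 DAP was -3.63 (SE 0.69, limma adjusted p = 0.000137), although at 26 DAP both genotypes were at or under 3.06 TPM. In younger flesh the CLE12-like gene did not pass (-1.90, SE 0.85, adjusted p = 0.219). Without both replicate 3 libraries at 18 DAP it was lower in younger clnor flesh (-3.24, adjusted p = 0.00405). A gene like EPIDERMAL PATTERNING FACTOR 4 (Cla97C06G116000) went the other way (difference over older flesh 2.38, SE 0.40, limma adjusted p = 3.1e-05). It was at 18.07, 11.05 and 15.75 TPM in clnor at 26 DAP, against 0.55, 0.62 and 0 TPM in WT. By 42 DAP it was at 1.22, 0.49 and 0.65 TPM in clnor and listed at 0 in all 3 WT libraries. It was higher in younger clnor flesh too (1.89, SE 0.49, limma adjusted p = 0.0331), where 1.98% of all genes were. Without both replicate 3 libraries at 18 DAP that difference was 2.79 (adjusted p = 1.21e-05).

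The 40 genes next to the 4 transcripts in ID order, 5 on each side of each, were called about as often as all genes. Of the 24 tested, 7 were higher and 4 lower in older clnor flesh, or 45.8%, beside 51.7% of all genes, and their median difference was -0.02. Next to the root meristem growth factor 9-like gene, the gene of a bifunctional 3-dehydroquinate dehydratase and shikimate dehydrogenase (Cla97C02G027300), an enzyme on the way to aromatic amino acids, was at 68.43, 64.86 and 88.56 TPM in clnor at 42 DAP, against 318.25, 358.67 and 360.88 TPM in WT. The genotypes lay apart, with a difference over older flesh of -2.24 (SE 0.10, limma adjusted p = 2.4e-13). It was lower in younger clnor flesh too (-1.07, SE 0.13, adjusted p = 0.000145), where 1.53% of all genes were, and the difference was larger in older flesh (interaction -1.17, adjusted p = 3.02e-05), as for 8.4% of genes. On the other side, WRKY transcription factor 15 (Cla97C02G027320) was lower by a small margin (-0.50, SE 0.11, adjusted p = 0.000653) and WRKY transcription factor 12 (Cla97C02G027360) higher (2.02, SE 0.29, adjusted p = 4.5e-06). Beside the organ-specific P4-like gene, a glucan endo-1,3-beta-D-glucosidase-like gene (Cla97C11G211200), of an enzyme that cuts callose-type glucans, was lower (-1.41, SE 0.27, adjusted p = 0.000155). Most neighbours of the cryptdin protein-like gene were receptor-like protein kinases, and the 2 next to it were slightly higher in clnor (0.45, SE 0.13, adjusted p = 0.00646 for Cla97C09G162220, and 0.44, SE 0.15, adjusted p = 0.0146 for Cla97C09G162240), calls that were lost under quantile normalization. None of the 5 tested neighbours of the inhibitor I gene passed as fitted, but under quantile normalization 3 of them were lower in clnor, Cla97C06G122290 (-0.53, adjusted p = 0.000264), Cla97C06G122320 (-0.52, adjusted p = 0.0031) and Cla97C06G122380 (-1.15, adjusted p = 0.0294). Cla97C06G122380, a CONSTANS-like gene, also passed in 4 other settings.

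**Figure D5:**
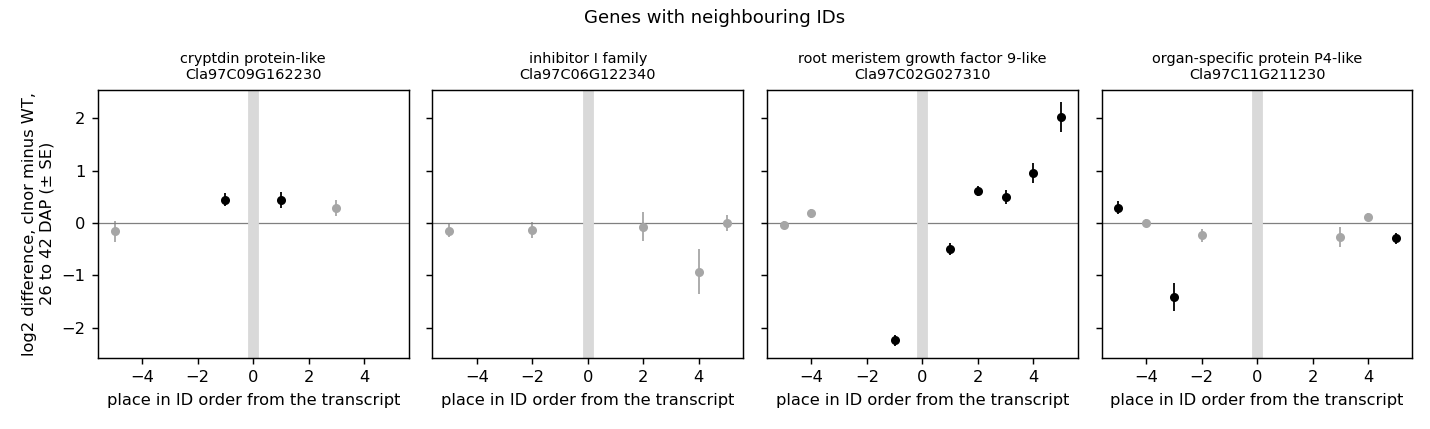
Difference between clnor and WT over 26, 34 and 42 DAP (log2 scale, limma estimate with SE) for the tested genes next to each transcript, by place in ID order, with called genes in black and the place of the transcript shaded. The neighbours run from -2.24 to 2.02, both beside the root meristem growth factor 9-like gene, and none of those beside the inhibitor I gene is called in the fit shown.

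Markers of flesh and of other tissues moved with genotype and age too. The summed level of 12 flesh markers (carotenoid and alkaline alpha-galactosidase genes) was 1493 to 1878 TPM in clnor and 4609 to 5633 TPM in WT at 42 DAP. It was carried largely by an alkaline alpha-galactosidase gene (Cla97C04G070460). Phytoene synthase (Cla97C01G008760), the entry enzyme of carotenoid synthesis, averaged 33.0 TPM in clnor and 200 TPM in WT over 26, 34 and 42 DAP. Several other flesh markers went the other way over these ages, and more were called higher than lower in clnor, as counted below. Phytoene desaturase (Cla97C07G142100) averaged 112 TPM in clnor and 86.6 TPM in WT, and 15-cis-zeta-carotene isomerase (Cla97C07G142750) 69.6 and 53.6 TPM. The 83 seed markers summed to 2955 to 3548 TPM in clnor and 5764 to 7132 TPM in WT at 34 DAP, and to 2517 to 2802 TPM in clnor and 3184 to 3397 TPM in WT at 42 DAP, with 35 of the 83 at 0 in all 3 libraries of each genotype at 34 DAP. Of the 44 tested, 4 were higher and 11 lower in older clnor flesh, shares of 9.09% and 25.0%, beside 33.5% and 18.3% of all genes. The 11S globulin storage protein gene Cla97C05G092030 averaged 3.16 TPM in clnor and 634 TPM in WT over 26, 34 and 42 DAP. Its highest single library of the 30 held 5067 TPM, so its levels were uneven. Differences in TPM were smaller for the other storage protein and oleosin genes, and went both ways. The clnor mean was below that of WT for vicilin Cla97C09G169860 (36.8 against 57.6 TPM) and 11S globulin Cla97C06G116690 (17.6 against 19.6). It was above for 7S vicilin Cla97C05G086160 (10.3 against 8.15) and oleosin Cla97C01G004930 (15.8 against 13.9). The 22 phloem markers summed to 177 to 833 TPM in clnor and 254 to 451 TPM in WT at 42 DAP, and the 33 epidermis and cuticle markers to 360 to 490 TPM in clnor and 158 to 199 TPM in WT. In older clnor flesh 7 of 12 flesh, 5 of 17 phloem and 8 of 16 epidermis and cuticle markers tested were called higher, and 2, 0 and 3 lower (for phloem also 0 at an unadjusted p under 0.05, by limma). The share called higher was 58.3% for flesh and 29.4% for phloem markers, beside 33.5% of all genes. At 42 DAP, when WT held all 4 transcripts, the summed flesh and seed markers were thus lower in clnor than in WT. The phloem sums overlapped, and the epidermis and cuticle sums were higher in clnor. The seed sums were carried largely by late embryogenesis abundant genes, which went both ways over 26, 34 and 42 DAP. Cla97C01G018900 averaged 332 TPM in clnor and 1284 TPM in WT, and Cla97C09G168120 1414 TPM in clnor and 1034 TPM in WT. The part of seed or other tissue in the levels of the 4 transcripts was not tested.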

How the data were processed

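RNA of clnor and WT watermelon flesh was sequenced in 30 libraries, grouped by genotype and age as the labels give them. Trizol extraction and TruSeq libraries are named in the labels' protocols. The deposited values are TPM per gene and library, made by the authors; the tools named in the submitters' processing notes are Cufflinks, HISAT2, StringTie and TopHat2, with versions, genome build and the role of each not given in the sources used here. No genome was used here, so no coordinates or sequences are given. Sums of the table were 970727 to 985840 TPM, and 5099 to 6433 genes per library were listed at 0.

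Values were tested as log2(TPM + 1). Genes needed 1 TPM or more in 3 or more libraries, which 16503 met, and were fitted over 10 groups with limma 3.58.1 in R 4.3.3 (eBayes with trend and robust, 20 residual degrees of freedom), after the script was tested on simulated data. Tests were two-sided, adjusted by Benjamini and Hochberg over all 16503 genes within a contrast, and called at an adjusted p under 0.05. Older flesh is the mean of 26, 34 and 42 DAP, and younger flesh that of 10 and 18 DAP. Alternatives were 0.1 or 0.5 TPM added, no filter or a filter at 5 TPM, upper-quartile and quantile scaling, a fit to the groups of a contrast alone, the replicate number as a block, and each library left out.

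The members and lists were chosen with earlier results of these data known. Lists were search words in gene descriptions, with accidental matches removed after the descriptions were read. The rule for names took, for each member, the 6 described genes with the highest Pearson r over 30 libraries, up to 5 called genes of each list with the smallest p, the most abundant gene of a list, the 5 IDs on each side, and the genes most abundant in late WT among those near 0 in clnor; of list genes and ID neighbours the text names some and counts the rest. The other sulfotransferase, phytosulfokine and growth factor genes, the glycine-rich protein and the marker genes were named after their values were seen.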

Additional observations from a re-analysis of the deposited data

Results flagged for a closer look

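For 13 relatives and ID neighbours of the 4 transcripts, the clnor minus WT difference was unlike in older (26, 34 and 42 DAP) and younger (10 and 18 DAP) flesh by a test of that change (limma interaction, older minus younger, adjusted p under 0.05, a call that 21.3% of all genes met). Without both replicate 3 libraries at 18 DAP, 11 of the 13 were still called. In organ-specific protein genes the interaction was 5.02 for Cla97C02G032070 and 4.51 for Cla97C02G032080. Among protease inhibitors it was -0.58 for the cysteine proteinase inhibitor Cla97C11G218960, 1.24 for the Bowman-Birk type inhibitor Cla97C04G078040 and 2.92 for Kunitz trypsin inhibitor 4 (Cla97C02G041780). Among antimicrobial proteins it was 3.74 for defensin-like protein 2 (Cla97C02G026360) and 4.01 for defensin-like protein 6 (Cla97C01G007340).

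Among peptides and their enzymes it was -0.46 for the sulfotransferase-like gene Cla97C05G091250, 1.31 for a rapid alkalinization factor gene (Cla97C02G041210) and 1.27 for a CLE17-like gene (Cla97C01G006590). Beside the root meristem growth factor 9-like gene it was -1.17 for the shikimate pathway gene Cla97C02G027300, -0.50 for WRKY transcription factor 15 (Cla97C02G027320) and 1.82 for WRKY transcription factor 12 (Cla97C02G027360). Those not called without both replicate 3 libraries were the rapid alkalinization factor gene (1.02, adjusted p = 0.0563) and WRKY transcription factor 15 (-0.48, adjusted p = 0.0892). The cause of each difference was not tested.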

How the results depend on the processing

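The clnor minus WT differences of the 4 transcripts in older flesh kept their direction in each setting. With 0.1 TPM added they were -9.88 (Cla97C09G162230), -4.69 (Cla97C06G122340), -9.07 (Cla97C02G027310) and -7.27 (Cla97C11G211230), and with 0.5 TPM -7.57 (Cla97C09G162230) and -6.77 (Cla97C02G027310). With each library left out, they ran from -6.83 to -6.41, -3.09 to -2.73, -5.99 to -5.62 and -6.51 to -6.15 in the same gene order. With each library left out, 7995 to 8811 genes were called in older flesh (8536 with all), 155 to 1885 in younger flesh (579), 2887 to 4087 for the older minus younger difference (3507), 7564 to 9226 for age in WT (8972), 5163 to 6412 for age in clnor (6207) and 110 to 801 for WT 42 minus 34 DAP (619). The younger flesh count moved by over 1.5 times on leaving out any of 10 single libraries. It was 1885 without the library labelled clnor 18 DAP replicate 3, 1275 without WT 18 DAP replicate 3, 1073 without clnor 10 DAP replicate 1 and 155 without clnor 18 DAP replicate 2. Leaving out clnor 18 DAP replicate 1 gave 193, and WT 18 DAP replicate 2 gave 231. For WT 10 DAP, 239 were called on leaving out replicate 2 and 290 on leaving out replicate 3, and for clnor 10 DAP 321 and 334. It was 3 when only the 10 and 18 DAP groups were fitted and 2737 without both replicate 3 libraries at 18 DAP, a setting chosen after seeing the data. The count for WT 42 minus 34 DAP was 153 under quantile normalization and 409 when only these groups were fitted. On leaving out replicate 1, 2 or 3 of WT 34 DAP it was 289, 205 or 152, and for replicate 2 or 3 of WT 42 DAP 197 or 110. Higher and lower calls in older flesh were 3874 and 4360 under quantile normalization, against 5521 and 3015, with medians over all genes of -0.01 and 0.12; in younger flesh 271 and 384 against 326 and 253, for the older minus younger difference 1676 and 1810 against 2121 and 1386, for age in WT 5155 and 3971 against 4128 and 4844, and for WT 42 minus 34 DAP 72 and 81 against 507 and 112. Of 47 related genes tested in older flesh, 29 were called and 24 of them in every setting, 5 were lost and 8 gained in at least 1 setting, and a receptor protein kinase-like gene (Cla97C11G211180) changed sign, from 0.30 to -0.13 under quantile normalization (adjusted p = 0.29); the cause was not tested. Replicate numbers did not pair the libraries (r of same-numbered deviations -0.407 to 0.247 over 15 pairs, 4 of them over 0.1, and 6 libraries closest to their own number). With the number as a block the counts were 8398, 513, 3366, 8874, 6046 and 531 in the order of the 6 contrasts above. Depth is unknown, so the limit behind a value listed at 0 cannot be given.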
